A study of Mus musculus with 4 samples.

Results

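Genes that mark meningeal fibroblasts, mural cells and the endothelium were read in RNA sequencing libraries of mouse astrocytes treated with Ptbp1 siRNA or with NC siRNA. The set holds 38 genes, chosen by name as fibroblast, meningeal, pericyte and endothelial markers other than fibrillar collagens, and all 38 were found among the 54532 genes of the table. The Ptbp1 siRNA group received a small interfering RNA (siRNA, double-stranded RNA that marks its target transcript for cleavage) against Ptbp1, which encodes the splicing regulator polypyrimidine tract binding protein 1. The NC siRNA group received an siRNA labelled NC, which the table's columns name as the control. Each group had 2 libraries, and no time point, animal age or strain is given in the labels. The labels give the cells only as astrocytes and do not state if libraries within a group are separate cultures, and p-values then measure only the spread between these libraries, which may be technical.

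The meninges are the connective tissue sheets around the brain, built by fibroblasts that lay down collagen and small proteoglycans and that supply retinoic acid to the developing cortex. Mural cells (pericytes and smooth muscle cells) wrap vessels, receive platelet-derived growth factor through the receptor encoded by Pdgfrb, and share a mesenchymal gene programme with fibroblasts. Endothelial cells line the vessels and are held together in the brain by tight junctions that contain claudin-5. In bulk RNA, fewer cells of a type and less RNA per cell cannot be told apart.

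Gene counts totalled 14557844 and 14981622 in the Ptbp1 siRNA libraries and 16009248 and 15002578 in the NC siRNA libraries. Ptbp1 stood at 203 and 196 CPM (counts scaled to library size) with Ptbp1 siRNA, against 300.4 and 295 CPM with NC siRNA. Its log2 fold change was -0.58 (standard error, SE, 0.063) with an adjusted p of 0.00127 in edgeR's quasi-likelihood test with Benjamini-Hochberg adjustment. That test covered the 16368 genes that passed a filter on low counts, and adjusted p-values below run over all of them. Of the set, 34 genes passed the filter and 4 did not.

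Many genes of fibroblast matrix were abundant in these libraries. Several marker genes of pericytes and endothelium were at or near 0, while other mural and endothelial genes were present. Levels are compared between genes per length, as the deposited FPKM (fragment counts per unit of gene length and sequencing depth). Mgp, which encodes matrix Gla protein, an inhibitor of calcification, was the highest of the set at 189 and 169 FPKM with Ptbp1 siRNA, against 185 and 196 FPKM with NC siRNA. The proteoglycan genes Bgn and Ogn followed, with means over the 4 libraries of 69.5 and 55.8 FPKM, and the ranges of these 3 genes over the libraries did not overlap. From Serpinf1 at a mean of 36.7 FPKM down to Twist1 at 18.4 FPKM stood 9 genes whose ranges each overlapped that of the next.

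Cldn5, the claudin-5 gene, had 0 counts in each library, which allows a level of up to 0.206 and 0.200 CPM in the Ptbp1 siRNA libraries and up to 0.187 and 0.200 CPM in the NC siRNA libraries if 3 counts are taken as the limit, for counting error only. Kcnj8 and Abcc9, which encode the potassium channel pore and the sulfonylurea receptor of pericyte ATP-sensitive channels, had counts of 0 and 0 (Kcnj8) and of 0 and 1 (Abcc9) with Ptbp1 siRNA, against 1 and 0 (Kcnj8) and 0 and 4 (Abcc9) with NC siRNA. Slc22a6, an organic anion transporter gene of meningeal cells, had 0 and 1 counts with Ptbp1 siRNA, against 1 and 1 with NC siRNA. These 4 genes lay below the count filter and were not tested. Pecam1, the gene of the endothelial adhesion molecule CD31, had 11 and 22 counts with Ptbp1 siRNA, against 12 and 13 with NC siRNA. Rgs5, a regulator of G-protein signalling used as a pericyte marker, had 17 and 20 counts with Ptbp1 siRNA, against 13 and 10 with NC siRNA. Beside these low counts, the endothelial genes Cdh5, Slco1a4, Eng, Kdr and Flt1 held means between 1.90 and 8.32 FPKM over the libraries, and the mural gene Pdgfrb held 13.5 FPKM. Contractile genes of smooth muscle, named here after their values were seen, were high, with means over the libraries of 2005 FPKM for Acta2, 369.7 FPKM for Myl9 and 83.7 FPKM for Cnn1. Of other mural genes outside the set, Mcam was at 24.3, Lmod1 at 14.2, Cspg4 at 5.44, Notch3 at 5.35 and Tagln at 4.14 FPKM. Another smooth muscle gene, Myh11, was at 0.235 FPKM. Ndufa4l2 was at 0.394, Heyl at 0.376, Vtn at 0.309, Higd1b at 0.297 and Des at 0.0398 FPKM. The mural markers thus did not go one way. Of endothelial genes outside the set, Slc2a1 was at 6.28, Esam at 4.50, Ocln at 2.06 and Abcb1a at 1.36 FPKM. Vwf was at 0.408, Egfl7 at 0.331, Tek at 0.220, Sox18 at 0.162 and Ly6c1 at 0.119 FPKM. Emcn was at 0.0635 and Erg at 0.0195 FPKM, and Tie1 and Sox17 had 0 counts in each library. The endothelial markers did not go one way either.

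**Figure D1:**
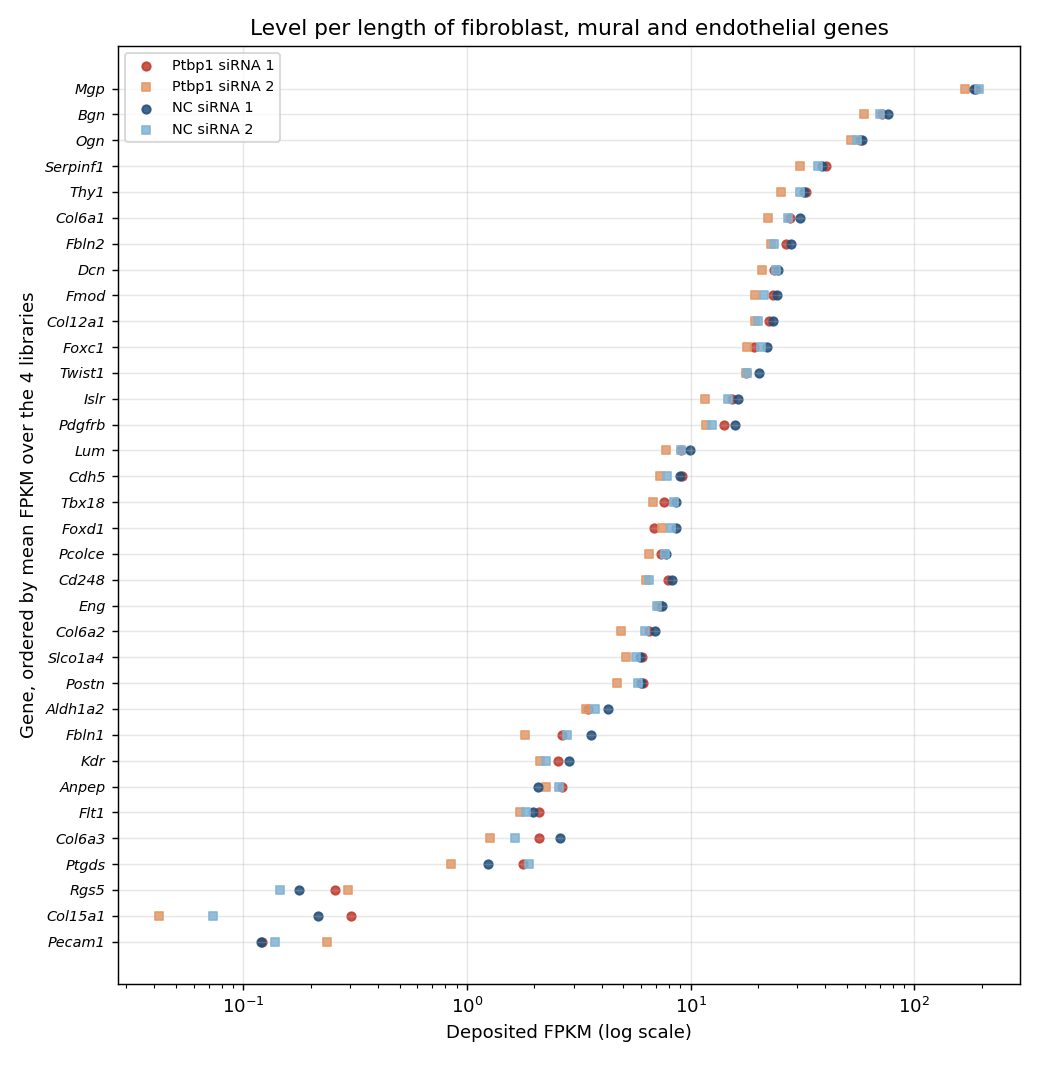
Deposited FPKM (log scale) of the genes with a mean above 0.1 FPKM, in order of their mean over the 4 libraries; each point is 1 library. Mgp leads at a mean of 184 FPKM, and Rgs5, Col15a1 and Pecam1 lie at 0.154 to 0.218 FPKM, far below the genes above them.

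The comparison of the siRNAs asked how these genes differ when Ptbp1 is lowered. None of the 34 tested genes passed an adjusted p of 0.05, in either direction, where 0.00611% of all tested genes were called higher and 0.0183% lower. DESeq2 and limma on log2(FPKM + 1) also called 0 of them. Values were nonetheless mostly on the lower side: 29 of 34 genes (85.3%) had a negative log2 fold change, where 49.8% of all tested genes did, and the median was -0.12, against 0.00036 over all tested genes. The medians of the marker lists of other cell types were also negative, so the lean is not called particular to the set. At an unadjusted p under 0.05, 5 of 34 (14.7%) were lower and 0 were higher, where 2.29% and 1.69% of all tested genes were. Both Ptbp1 siRNA libraries lay below both NC siRNA libraries for 8 genes (23.5%) and above them for 1 (2.9%), where 15.9% and 15.6% of all tested genes did so.

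The size of this lean moved with single libraries. The median log2 fold change of the set was -0.25 without Ptbp1 siRNA 1, -0.0073 without Ptbp1 siRNA 2, -0.073 without NC siRNA 1 and -0.19 without NC siRNA 2. Without each library in turn, the log2 fold change of Fbln1 ran from -0.81 to -0.26. That of Col6a3 ran from -0.75 to 0.040 and that of Col6a1 from -0.39 to -0.072. With 3 libraries the prior degrees of freedom became infinite, so each gene's spread came from the trend over all genes. The p-values of single genes in those fits are therefore left out. In the authors' deposited table, 36 of the 38 genes had a p-value, 2 of them under 0.05 (Foxc1 at 0.0282 and Col6a1 at 0.0476), and 0 had an adjusted p under 0.05.

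**Figure D2:**
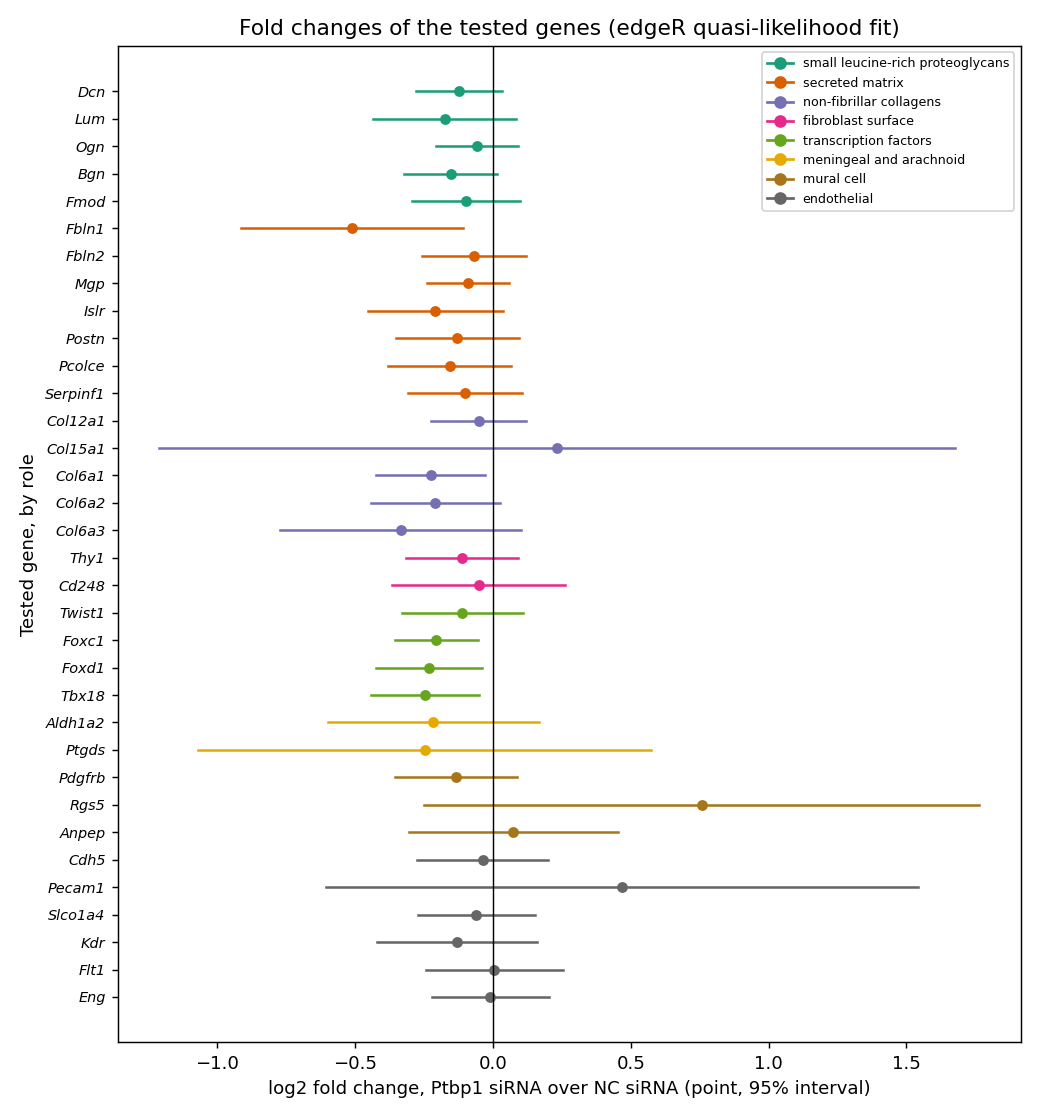
Log2 fold change of Ptbp1 siRNA over NC siRNA for the 34 tested genes, by role, with points for the edgeR estimate and lines for its 95% interval. Most points lie left of 0 and most intervals cross it; those of Fbln1, Col6a1, Foxc1, Foxd1 and Tbx18 do not.

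The 4 genes of mesenchymal transcription factors formed the role whose median log2 fold change moved least when each library was left out in turn. Foxc1 encodes a forkhead factor required for the meninges to form, Foxd1 a forkhead factor of stromal and pericyte precursors in the kidney, Tbx18 a T-box factor of mural cells, and Twist1 a basic helix-loop-helix factor of mesenchyme. For each of the 4, both Ptbp1 siRNA libraries lay below both NC siRNA libraries, where this was so for 15.9% of all tested genes. For Twist1 the nearest values were 29.0 and 29.2 CPM. The role was singled out with the values known, and none of the 4 passed the adjusted test. Their promoters are shown here because these genes were lower side by side, so the choice rests on these same values. Those of the matrix genes Bgn and Col6a1 follow as windows of another role. They do not stand for genes with no difference. Their log2 fold changes were -0.15 and -0.23, against -0.20 for Foxc1 and -0.11 for Twist1. A link between promoter letters and fold changes was not tested. Each is a 300-base RefSeq window on GRCm38.p6, from 250 bases before to 50 after a gene's start, 5′ to 3′ on the gene's strand, and capitals mark each CG dinucleotide. The windows lie at chr13:31806396-31806695 (plus strand), chr13:98353995-98354294 (plus), chr9:87731211-87731510 (minus), chr12:33957421-33957720 (plus), chrX:73483351-73483650 (plus) and chr10:76725995-76726294 (minus).
Foxc1: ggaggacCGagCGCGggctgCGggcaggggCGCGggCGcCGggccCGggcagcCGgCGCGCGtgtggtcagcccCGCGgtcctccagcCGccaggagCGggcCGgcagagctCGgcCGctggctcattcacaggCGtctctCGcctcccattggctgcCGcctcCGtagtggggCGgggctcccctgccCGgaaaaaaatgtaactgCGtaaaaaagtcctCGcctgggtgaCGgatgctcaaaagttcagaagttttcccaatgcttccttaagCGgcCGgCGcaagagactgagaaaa
Foxd1: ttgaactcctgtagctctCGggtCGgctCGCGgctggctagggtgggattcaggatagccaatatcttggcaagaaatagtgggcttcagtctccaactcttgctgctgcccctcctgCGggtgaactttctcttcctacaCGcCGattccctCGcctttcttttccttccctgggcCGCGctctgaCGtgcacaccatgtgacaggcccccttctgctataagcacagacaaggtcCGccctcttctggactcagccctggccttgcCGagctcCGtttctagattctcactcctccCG
Tbx18: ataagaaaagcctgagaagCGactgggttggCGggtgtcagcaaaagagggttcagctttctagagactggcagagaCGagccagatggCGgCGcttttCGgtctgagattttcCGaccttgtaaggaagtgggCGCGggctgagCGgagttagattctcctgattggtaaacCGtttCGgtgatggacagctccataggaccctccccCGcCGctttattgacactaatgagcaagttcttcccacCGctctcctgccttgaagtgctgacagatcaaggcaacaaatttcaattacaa
Twist1: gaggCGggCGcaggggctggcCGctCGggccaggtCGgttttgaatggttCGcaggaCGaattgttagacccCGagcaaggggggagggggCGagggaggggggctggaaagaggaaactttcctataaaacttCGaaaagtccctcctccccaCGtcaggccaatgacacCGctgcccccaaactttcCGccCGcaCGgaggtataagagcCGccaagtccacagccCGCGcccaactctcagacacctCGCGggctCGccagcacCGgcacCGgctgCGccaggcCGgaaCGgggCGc
Bgn: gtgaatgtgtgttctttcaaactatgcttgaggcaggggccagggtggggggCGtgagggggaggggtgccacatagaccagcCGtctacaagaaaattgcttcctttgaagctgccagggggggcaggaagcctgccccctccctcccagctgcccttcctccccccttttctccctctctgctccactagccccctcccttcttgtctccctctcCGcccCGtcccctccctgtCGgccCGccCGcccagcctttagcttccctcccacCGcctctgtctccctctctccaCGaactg
Col6a1: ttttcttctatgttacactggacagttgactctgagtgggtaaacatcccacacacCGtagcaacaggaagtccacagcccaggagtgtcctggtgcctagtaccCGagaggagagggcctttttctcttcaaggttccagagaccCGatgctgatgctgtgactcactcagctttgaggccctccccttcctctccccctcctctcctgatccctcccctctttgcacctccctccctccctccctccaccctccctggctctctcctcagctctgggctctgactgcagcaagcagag

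CG dinucleotides were more frequent in the transcription factor windows than in the matrix windows, but not than in all other windows of the set. The ratio of observed CG to the number expected from the window's C and G content was 0.943 for Foxc1, 0.827 for Twist1, 0.755 for Tbx18 and 0.624 for Foxd1. It was 0.317 for Bgn and 0.134 for Col6a1, and it ran from 0.047 to 0.599 over the 13 proteoglycan, secreted matrix and collagen genes with a window, so that the highest of these, Fbln1, lay next to Foxd1. Outside both classes, Aldh1a2 stood above the factors at 1.11, and Anpep at 0.810, Flt1 at 0.780 and Kdr at 0.689 lay within their range. The median over all 32851 promoters of the table was 0.384, and 35.8% of them were at 0.6 or above. The sequence CCAAT, searched on both strands, occurred in 4 of 4 transcription factor windows and 2 of 13 matrix windows, against 37.4% of all promoters. The GC box GGGCGG occurred in 3 of 4 and 4 of 13, against 35.7%, and the TATA box TATAAA in 1 of 4 and 2 of 13, against 13.6%. Over all 29 windows of the set, 11 held CCAAT, 12 the GC box and 4 the TATA box. Promoters were matched by symbol for 29 of the 38 genes, at the start nearest the deposited gene start. That start lay 45752 bases away for Islr, 12849 for Anpep and 2380 for Pcolce, so these windows may not be the promoters of the counted transcripts. The motifs and the CG ratio were chosen with the values known, and a match is a description of letters.

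Foxc1 (ENSMUSG00000050295; GRCm38 chromosome 13, 31806633 to 31812476, plus strand) was at 112 and 105 CPM in Ptbp1 siRNA 1 and 2, against 129 and 121 CPM in NC siRNA 1 and 2. The groups did not overlap, and the gap between them was about as wide as the spread within each. The log2 fold change was -0.20 (SE 0.071, 95% interval -0.35 to -0.05, unadjusted p = 0.0109, edgeR adjusted p = 1.00), and without each library in turn it stayed between -0.26 and -0.15.

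The other three factors are given in full although they fall outside the rule for named genes. Foxd1 (chromosome 13, 98354242 to 98359305, plus strand) was at 34.8 and 37.7 CPM with Ptbp1 siRNA, against 43.7 and 41.4 CPM with NC siRNA. Its log2 fold change was -0.23 (SE 0.090, edgeR adjusted p = 1.00), between -0.29 and -0.17 without each library. Foxd1 and Twist1 were the tested genes of the set that were lowest in Ptbp1 siRNA 1.

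Tbx18 (chromosome 9, 87702800 to 87731260, minus strand) was at 36.0 and 32.3 CPM with Ptbp1 siRNA, against 40.9 and 40.1 CPM with NC siRNA. Its log2 fold change was -0.25 (SE 0.093, edgeR adjusted p = 1.00), between -0.33 and -0.17 without each library. Of its exon bases, 20.56% overlap the antisense gene D030062O11Rik, which had 2 and 15 counts with Ptbp1 siRNA and 7 and 4 with NC siRNA, against 523 and 481 and 655 and 601 counts for Tbx18. No source used here states whether strand was used in counting, so reads of the pair may be mixed.

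Twist1 (chromosome 12, 33957671 to 33959829, plus strand) was at 28.9 and 29.0 CPM with Ptbp1 siRNA, against 33.2 and 29.2 CPM with NC siRNA. NC siRNA 2 stood just above the Ptbp1 siRNA libraries. The log2 fold change was -0.11 (SE 0.10, edgeR adjusted p = 1.00), between -0.20 and -0.016 without each library. Summed over the 4 factors, the level was 208 ± 5.87 CPM with Ptbp1 siRNA and 239 ± 10.7 CPM with NC siRNA (mean ± SD, n = 2 each). Their median log2 fold change was -0.22, and it ran from -0.25 to -0.16 without each library.

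**Figure D3:**
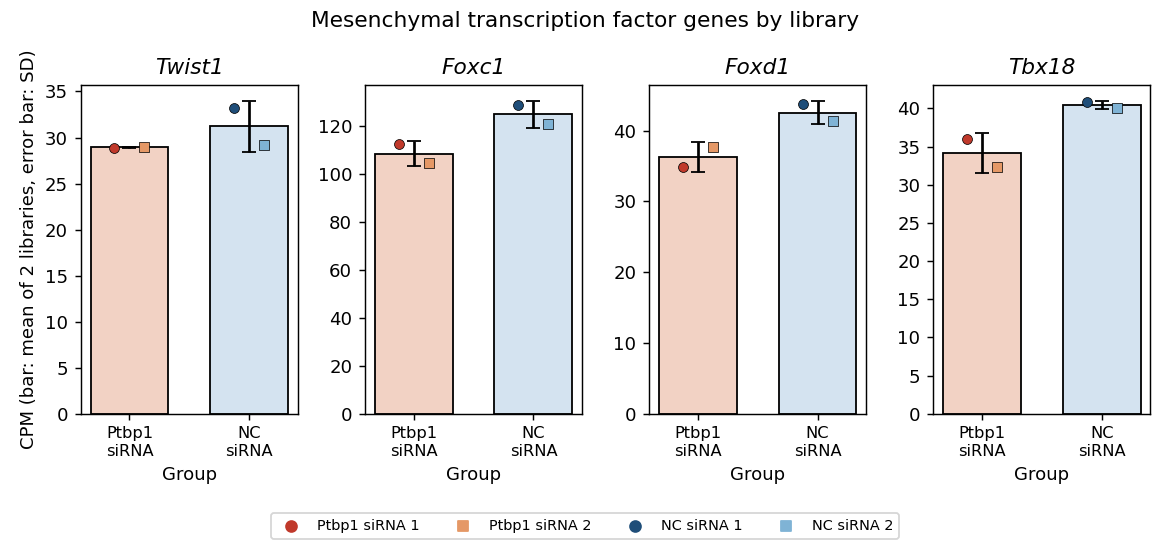
CPM of the 4 transcription factor genes, with bars for the mean of 2 libraries, error bars for the SD, circles for library 1 and squares for library 2 of each group. Both Ptbp1 siRNA points lie below both NC siRNA points for each gene, as they do for 15.9% of all tested genes. For Twist1 the nearest pair is 29.0 and 29.2 CPM.

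The 5 small leucine-rich proteoglycans, which bind collagen fibrils and set their width and spacing, had negative log2 fold changes from -0.17 to -0.06 with a median of -0.12, and none passed. Bgn, the biglycan gene and the most abundant by CPM (ENSMUSG00000031375; chromosome X, 73483602 to 73495933, plus strand), was at 441 and 366 CPM with Ptbp1 siRNA, against 467 and 429 CPM with NC siRNA. Ptbp1 siRNA 1 lay between the NC siRNA libraries, so the groups overlapped. The log2 fold change was -0.15 (SE 0.079, edgeR adjusted p = 1.00), and its 95% interval corresponds to a fold between 0.801 and 1.01. The decorin gene Dcn was the one proteoglycan gene whose groups did not overlap, at 139 and 122 CPM with Ptbp1 siRNA, against 144 and 141 CPM with NC siRNA. The genes of osteoglycin (Ogn), fibromodulin (Fmod) and lumican (Lum) overlapped between groups, with log2 fold changes of -0.06 (SE 0.070), -0.10 (SE 0.093) and -0.17 (SE 0.12).

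Of the 7 genes of other secreted matrix proteins, all had negative log2 fold changes, from -0.51 to -0.07 with a median of -0.13, and none passed. Fbln1, which encodes fibulin-1, a protein of elastic fibres and basement membranes (ENSMUSG00000006369; chromosome 15, 85205949 to 85286535, plus strand), was at 11.7 and 7.99 CPM with Ptbp1 siRNA, against 15.7 and 12.3 CPM with NC siRNA. The groups did not overlap, and Ptbp1 siRNA 1 and NC siRNA 2 lay close together. At -0.51 (SE 0.19, 95% interval -0.91 to -0.11, unadjusted p = 0.0165, edgeR adjusted p = 1.00), its log2 fold change was the most negative of the set. Without each library it ran from -0.81 to -0.26.

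Mgp (ENSMUSG00000030218; chromosome 6, 136872435 to 136875823, minus strand) was at 225 and 201 CPM with Ptbp1 siRNA, against 220.3 and 233 CPM with NC siRNA. Its groups overlapped, with a log2 fold change of -0.09 (SE 0.070, 95% interval -0.24 to 0.06). Pcolce, whose product enhances cleavage of procollagen, did not overlap between groups, at 28.3 and 24.96 CPM with Ptbp1 siRNA, against 29.9 and 29.5 CPM with NC siRNA (log2 fold change -0.16, SE 0.11). The remaining genes overlapped: Islr, the gene of the stromal protein meflin, with a log2 fold change of -0.21 (SE 0.12), Postn, the periostin gene, with -0.13 (SE 0.10), Serpinf1, the gene of pigment epithelium-derived factor, with -0.10 (SE 0.098), and Fbln2, a second fibulin gene, with -0.07 (SE 0.088).

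The 5 non-fibrillar collagen genes had a median log2 fold change of -0.21, and none passed. Collagen VI forms beaded microfilaments from chains encoded by Col6a1, Col6a2 and Col6a3. Col6a1 (ENSMUSG00000001119; chromosome 10, 76708792 to 76726168, minus strand) was at 122 and 97.6 CPM with Ptbp1 siRNA, against 136 and 120.1 CPM with NC siRNA. Ptbp1 siRNA 1 lay just above NC siRNA 2, so the groups overlapped. The log2 fold change was -0.23 (SE 0.093, 95% interval -0.42 to -0.03, unadjusted p = 0.0274, edgeR adjusted p = 1.00).

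The other collagen VI genes gave log2 fold changes of -0.21 (SE 0.11) for Col6a2 and -0.33 (SE 0.21) for Col6a3. Col6a3 was at 25.3 and 15.2 CPM with Ptbp1 siRNA, against 31.2 and 19.6 CPM with NC siRNA, so that library 2 of each group lay below library 1 of both. Col12a1, whose product decorates collagen fibrils (ENSMUSG00000032332; chromosome 9, 79598991 to 79718831, minus strand), showed the same order, at 343 and 297 CPM with Ptbp1 siRNA, against 357 and 306 CPM with NC siRNA, and had a log2 fold change of -0.05 (SE 0.081). Col15a1, a collagen of basement membrane zones, had 28 and 4 counts with Ptbp1 siRNA, against 22 and 7 with NC siRNA, too few to resolve a change (95% interval of the log2 fold change -1.21 to 1.68). The median over the collagen genes was 0.040 without NC siRNA 1.

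The fibroblast surface genes showed no group difference beyond the spread of the libraries. Thy1, which encodes a glycolipid-anchored glycoprotein of fibroblasts that neurons also carry (ENSMUSG00000032011; chromosome 9, 44043384 to 44048579, plus strand), was at 98.7 and 76.6 CPM with Ptbp1 siRNA, against 96.9 and 92.3 CPM with NC siRNA. Ptbp1 siRNA 1 was the highest library and Ptbp1 siRNA 2 the lowest. The log2 fold change was -0.11 (SE 0.095), and that of Cd248, the endosialin gene, was -0.05 (SE 0.15).

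Of the meningeal genes, Aldh1a2, which encodes the retinoic acid-producing enzyme RALDH2 (ENSMUSG00000013584; chromosome 9, 71215789 to 71296243, plus strand), was at 7.92 and 7.72 CPM with Ptbp1 siRNA, against 9.67 and 8.47 CPM with NC siRNA. The groups did not overlap, and the log2 fold change was -0.22 (SE 0.18, 95% interval -0.60 to 0.17, edgeR adjusted p = 1.00). Ptgds, the prostaglandin D synthase gene of the arachnoid, had 43 and 21 counts with Ptbp1 siRNA, against 33 and 47 with NC siRNA, and a log2 fold change of -0.25 (SE 0.39).

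The mural genes gave no common direction among the 3 tested. Pdgfrb (ENSMUSG00000024620; chromosome 18, 61045150 to 61085061, plus strand) was at 77.5 and 64.8 CPM with Ptbp1 siRNA, against 87.1 and 68.6 CPM with NC siRNA. The groups overlapped, with library 1 above library 2 in each, and the log2 fold change was -0.13 (SE 0.10, 95% interval -0.35 to 0.09). Rgs5 (ENSMUSG00000026678; chromosome 1, 169655501 to 169695813, plus strand) was at 1.17 and 1.34 CPM with Ptbp1 siRNA, against 0.811 and 0.667 CPM with NC siRNA. It was the only tested gene of the set with both Ptbp1 siRNA libraries above both NC siRNA libraries. A log2 fold change of 0.76 with an SE of 0.48 (95% interval -0.25 to 1.76, edgeR adjusted p = 1.00) came from 60 counts in all. Anpep, the gene of aminopeptidase N on pericytes and fibroblasts, had a log2 fold change of 0.07 (SE 0.18).

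The endothelial genes lay closest to 0, with a median log2 fold change of -0.02 over the 6 tested, and each overlapped between the groups. Slco1a4, an organic anion transporter gene of the blood-brain barrier that astrocytes also express (ENSMUSG00000030237; chromosome 6, 141805440 to 141856199, minus strand), was at 39.1 and 33.0 CPM with Ptbp1 siRNA, against 38.4 and 36.7 CPM with NC siRNA (log2 fold change -0.06, SE 0.0996). Kdr, the gene of the vascular endothelial growth factor receptor VEGFR2 (ENSMUSG00000062960; chromosome 5, 75932827 to 75978458, minus strand), was at 23.1 and 19.3 CPM with Ptbp1 siRNA, against 26.0 and 20.4 CPM with NC siRNA (log2 fold change -0.13, SE 0.14). These 2 genes, too, were lower in library 2 than in library 1 of each group. The log2 fold changes were -0.04 (SE 0.11) for Cdh5, the gene of VE-cadherin, -0.01 (SE 0.0995) for Eng, the endoglin gene, 0.01 (SE 0.12) for Flt1, the gene of VEGFR1, and 0.47 (SE 0.51) for Pecam1.

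For 29 of the 34 tested genes, the log2 difference of the group means was smaller than the larger of the differences within a group. This share, 85.3%, was near the 79.3% of all tested genes. Ptbp1 siRNA 2 was the lowest library for 28 of 34 genes (82.4%), where it was for 25.5% of all tested genes. NC siRNA 1 was the highest for 22 (64.7%), where it was for 26.5% of all tested genes. Ptbp1 siRNA 2 stood below Ptbp1 siRNA 1 by a median of -0.25 on the log2 scale over the 34 genes, against -0.0023 over all tested genes. NC siRNA 2 stood below NC siRNA 1 by a median of -0.13, against -0.0037 over all tested genes.

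The pattern was sharpest in the proteoglycan, secreted matrix, collagen and surface genes, where Ptbp1 siRNA 2 was the lowest library for 19 of 19. The transcription factors differed from them in the Ptbp1 siRNA group: their median difference between Ptbp1 siRNA 2 and 1 was -0.047, with 2 of 4 genes lower in library 2. Whether the roles differ in this was not tested. Summed CPM over the 38 genes was 2592 and 2200.1 with Ptbp1 siRNA and 2720 and 2486 with NC siRNA.

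**Figure D4:**
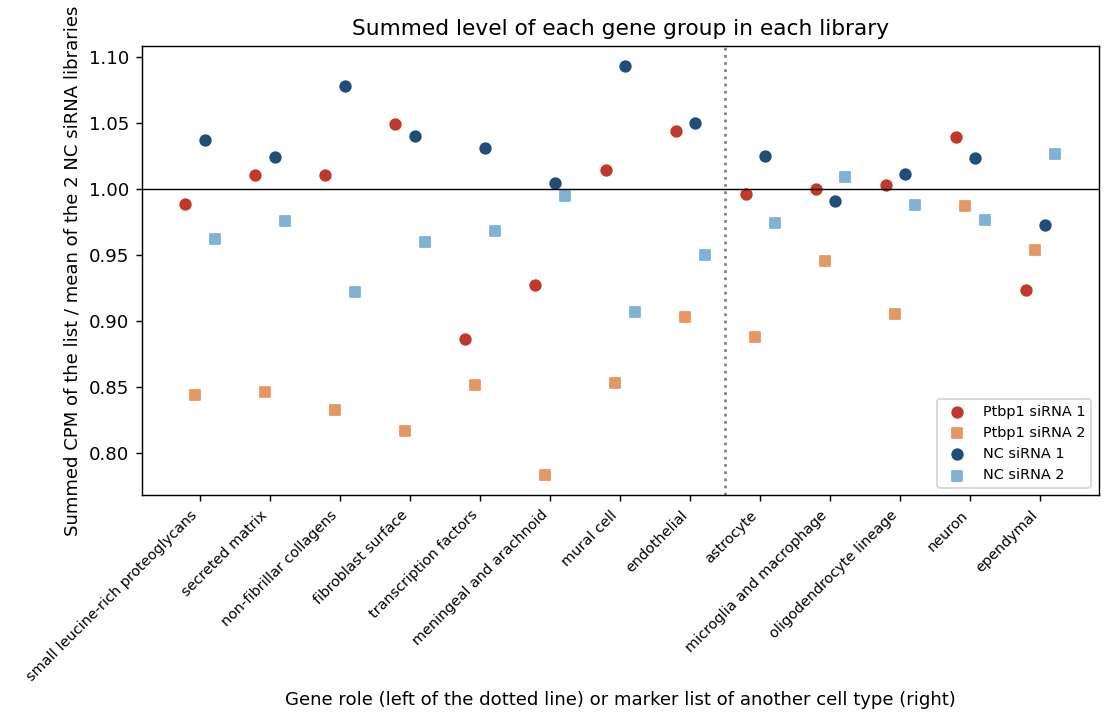
Summed CPM of each role, and of marker lists of other cell types, in each library, divided by the mean of the 2 NC siRNA libraries. Ptbp1 siRNA 2 is the lowest point of each of the 8 roles. It is also the lowest for the astrocyte, microglia and macrophage, and oligodendrocyte lineage lists, but not for the neuron and ependymal lists. For the transcription factors, the meningeal and arachnoid genes and the ependymal list, both Ptbp1 siRNA points lie below both NC siRNA points.

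Marker lists of other cell types moved with the libraries to differing degrees. Ptbp1 siRNA 2 also held the lowest sum for astrocyte, microglia and macrophage, and oligodendrocyte lineage markers. It did not for neuronal, ependymal or choroid plexus markers. Summed CPM in Ptbp1 siRNA 2 relative to Ptbp1 siRNA 1 was 0.849 for the 38 genes, 0.891 for 14 astrocyte markers, 0.903 for 10 oligodendrocyte lineage markers, 0.946 for 12 microglia and macrophage markers, 0.950 for 8 neuronal markers and 1.03 for 7 ependymal markers. The ratio of NC siRNA 2 to NC siRNA 1 was 0.914 for the 38 genes, 0.951 for astrocyte, 0.977 for oligodendrocyte lineage, 1.02 for microglia and macrophage, 0.954 for neuronal and 1.05 for ependymal markers. For 9 choroid plexus markers it was 3.64, as NC siRNA 2 held 496 CPM, against 136 CPM in NC siRNA 1 and 123 and 129 CPM in the Ptbp1 siRNA libraries. The log2 fold changes of Ptbp1 siRNA over NC siRNA in these lists were also mostly negative. Their medians were -0.12 for microglia and macrophage markers (8 of 12 tested genes negative), -0.11 for ependymal (5 of 7), -0.11 for neuronal (4 of 5), -0.08 for astrocyte (10 of 13), -0.07 for oligodendrocyte lineage (8 of 10) and -0.55 for choroid plexus markers (7 of 7). No difference between the set and these lists was tested, and neither was the part of the lists in the values of the set.

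Genes of the same cell types outside the set were read in the same fit. Their summed CPM ratio of Ptbp1 siRNA 2 to 1 was 0.874 for fibroblast, 0.927 for meningeal, 0.858 for mural and 0.866 for endothelial genes. The ratio of NC siRNA 2 to 1 was 0.921, 1.07, 0.997 and 0.927 in that order. Of 17 further fibroblast genes, 14 were tested, 0 passed, 11 were negative, and the median log2 fold change was -0.13, with the type I collagen genes leading. At an unadjusted p under 0.05, 4 of the 14 were lower and 0 higher, where 2.29% and 1.69% of all tested genes were. The groups did not overlap for 5 genes on the lower side and 0 on the higher, where 15.9% and 15.6% of all tested genes did so. Col1a1 was at 578 and 463 CPM with Ptbp1 siRNA, against 725 and 606 CPM with NC siRNA (log2 fold change -0.35, SE 0.094). Col1a2 was at 614 and 523 CPM with Ptbp1 siRNA, against 701 and 649 CPM with NC siRNA (-0.25, SE 0.075). Of 16 further meningeal genes, 12 were tested, 0 passed, 9 were negative, and the median was -0.11. The members with the smallest p were Zic1, a zinc finger factor gene (-0.12, SE 0.065), and Foxc2, the paralog of Foxc1, at 16.8 and 14.8 CPM with Ptbp1 siRNA, against 19.1 and 18.2 CPM with NC siRNA (-0.24, SE 0.13). Of 14 further mural genes, 10 were tested, 0 passed, 5 were negative, and the median was -0.01, with the smooth muscle myosin gene Myh11 at -0.84 (SE 0.45) and the Notch target gene Heyl at -0.61 (SE 0.41). Of 13 further endothelial genes, 7 were tested, 0 passed, 4 were negative, and the median was -0.17, with the angiopoietin receptor gene Tek at -0.92 (SE 0.50) and the junction gene Esam at -0.30 (SE 0.16). Each gene named here had an edgeR adjusted p of 1.00.

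**Figure D5:**
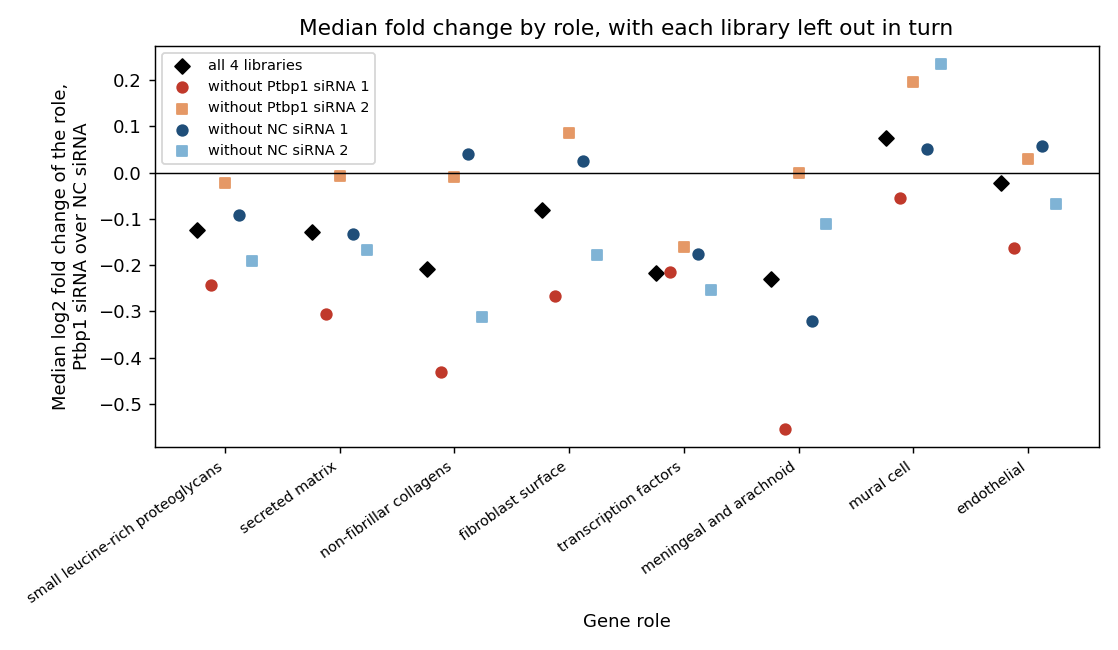
Median log2 fold change of Ptbp1 siRNA over NC siRNA by role, with all 4 libraries (diamonds) and with each library left out in turn. The transcription factor medians stay between -0.25 and -0.16, while those of the collagens run from -0.43 to 0.040.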

How the data were processed

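RNA from 4 libraries, 2 per group, was analysed. Per the labels' protocols, RNA came from an RNeasy kit and mRNA libraries from a SMARTer kit. The genome builds are GRCm38 and mm10 per the submitters' processing notes. No source used here names the aligner, the counting tool or the strand setting. The authors deposited 1 table with whole-number counts of reads for each gene, FPKM values scaled by gene length and library size, a signal of size-factor-scaled group means, and a log2 fold change, p-value and adjusted p-value of Ptbp1 siRNA over NC siRNA.

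The whole count table was fitted with edgeR 4.0.16 (R 4.3.3) with TMM scaling, default filterByExpr and group as the single term. The quasi-likelihood test was two-sided, and genes were called at a Benjamini-Hochberg adjusted p below 0.05. Standard errors and 95% intervals come from the quasi-F statistic, with 2 residual and 14.0 prior degrees of freedom. The set and the lists were chosen with earlier results of these data known. Within each role the rule takes the gene with the highest mean CPM and the one with the smallest p for full values. Of related lists it takes the 2 smallest p. Shared reads were gauged on GENCODE M21: at most 5.05% of the 50-base stretches of a gene in the set (Islr, shared with its neighbour Islr2) occur in transcripts of other genes. Alternatives were other scalings, DESeq2 1.42.0, limma 3.58.1 on log2(FPKM + 1), other filters, a replicate block, and leaving out each library.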

Additional observations from a re-analysis of the deposited data

How the results depend on the processing

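With RLE scaling, no scaling factor, DESeq2 or a mean of at least 1 CPM, 4 genes were called over all genes, 1 higher and 3 lower, and 0 genes of the set. Over all genes, limma on log2(FPKM + 1) called 0. The fit with no filter on low counts called 50 (18 higher, 32 lower), and leaving out 1 library gave between 34 and 75 (13 to 33 higher, 21 to 43 lower). The called genes of the set numbered 0 in each fit of all 4 libraries. Calls with 1 library left out are not given. Those fits leave 1 library in a group and took each gene's spread from the trend over all genes. Counts at an unadjusted p follow, and the share of all genes beside them is at hand for the reported fit only. Calls over all genes moved between the fits. The counts of the other fits therefore cannot be read as a result about the set. Its genes with an unadjusted p under 0.05 and a lower level were 5 in the reported fit, 2 with DESeq2, 2 with limma, 9 with no filter and 1 to 14 with 1 library left out.

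The replicate numbers are shared between the groups, but the labels do not say that a number marks a shared culture or day. Deviations of same-numbered libraries correlated at 0.097 over the 16368 tested genes and at 0.16 over the 11832 genes with a mean of at least 5 CPM. With the replicate block, 36 genes were called (12 higher, 24 lower), 0 of them in the set. In that fit 10 genes of the set had an unadjusted p under 0.05 and a lower level, without a share over all genes beside it. Calls over all genes also rose there, from 4 in the reported fit. The count of 10 therefore cannot be read as a result about the set.

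For 15 of the 34 tested genes, the log2 fold change kept its sign in every alternative that estimated it. Among them were Foxc1, Foxd1, Tbx18, Twist1, Dcn, Lum, Bgn, Fbln1, Col6a1 and Col6a2. The log2 fold change changed sign for the other 19, for 18 of them only when 1 library was left out. Over those 4 fits it ran from -0.12 to 0.0051 for Ogn, -0.24 to 0.035 for Fmod, -0.19 to 0.064 for Fbln2, -0.34 to 0.055 for Postn, -0.31 to 0.081 for Serpinf1, -0.16 to 0.060 for Col12a1, -1.76 to 1.21 for Col15a1, -0.75 to 0.040 for Col6a3, -0.31 to 0.062 for Thy1, -0.23 to 0.13 for Cd248, -0.87 to 0.19 for Ptgds, -0.29 to 0.050 for Pdgfrb, -0.076 to 0.23 for Anpep, -0.20 to 0.11 for Cdh5, -0.089 to 0.86 for Pecam1, -0.19 to 0.060 for Slco1a4, -0.29 to 0.054 for Kdr, -0.14 to 0.14 for Flt1 and -0.043 to 0.025 for Eng. Flt1 also changed sign with no scaling factor, at -0.0011, and with no filter, at -0.00043. For these reversals the cause was not tested. Apart from that, what can be resolved is limited by 2 libraries per group and, for Rgs5, Pecam1 and Col15a1, by totals of about 60 counts. Rgs5 kept its sign in the 10 alternatives that estimated it, out of 11.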
